A study of Mus musculus with 2 samples.

Results

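The genes described here are 10 genes that make, transport, trim and load the peptides shown by MHC class I molecules. They are Tap1, Tap2, Tapbp, Psmb8, Psmb9, Psmb10, Psme1, Psme2, Erap1 and Nlrc5, chosen by symbol, and each matched 1 of the 32285 gene rows of the deposited matrices. They were measured by droplet single-cell RNA sequencing in 2 libraries of tumours of B16-F10, a mouse melanoma line. The knockout library came from 3 tumours labelled FDPS-knockout (FDPS, farnesyl diphosphate synthase, makes the isoprenoid precursors of cholesterol and of prenyl groups), and the control library from 3 tumours whose genotype is labelled WT. Both were taken 14 days after injection and sorted for viable CD45-positive cells, which are host white blood cells, so melanoma cells in them are those that passed the sort. The labels give no age, sex or strain of the mice, no further treatment, and no map from cells to tumours. There is thus 1 library per group and no test: every difference below compares these libraries and not the conditions, and every interval is a 95% interval for counting error alone.

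Peptides for class I molecules are cut in the cytosol by the proteasome. Interferon-gamma induces the catalytic subunits encoded by Psmb8, Psmb9 and Psmb10, which replace the constitutive subunits encoded by Psmb5, Psmb6 and Psmb7, and the regulatory particle encoded by Psme1 and Psme2. Tap1 and Tap2 encode the subunits of the transporter that carries peptides into the endoplasmic reticulum, Tapbp encodes tapasin, which holds the transporter next to empty class I molecules, and Erap1 encodes the aminopeptidase that trims peptides there. Nlrc5 encodes the transactivator of class I genes. Loss of this machinery is a known way for tumour cells to escape CD8 T cells, and dendritic cells use it to present tumour antigens to them.

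In the GENCODE vM21 annotation (GRCm38), 5 of the 10 genes lie in the MHC region of chromosome 17. They are Tapbp (chr17:33915899-33929292, plus strand), Psmb9 (chr17:34181987-34187764, minus), Tap1 (chr17:34187553-34197225, plus), Psmb8 (chr17:34197721-34201454, plus) and Tap2 (chr17:34203527-34216321, plus). Psme1 (chr14:55578123-55581529, plus) and Psme2 (chr14:55587441-55591113, minus) are neighbours on chromosome 14. Erap1 lies at chr13:74639568-74693201 (plus), Nlrc5 at chr8:94434356-94527272 (plus) and Psmb10 at chr8:105935735-105938444 (minus). The spans range from 2710 bases for Psmb10 to 92917 bases for Nlrc5.

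Psmb9 and Tap1 are read away from each other, and 225 bases lie between their RefSeq starts (chr17:34187331-34187555, GRCm38.p6, given on the plus strand). The stretch is shown because both genes start at its edges, and its capitals mark a CCAAT box.
Psmb9 and Tap1: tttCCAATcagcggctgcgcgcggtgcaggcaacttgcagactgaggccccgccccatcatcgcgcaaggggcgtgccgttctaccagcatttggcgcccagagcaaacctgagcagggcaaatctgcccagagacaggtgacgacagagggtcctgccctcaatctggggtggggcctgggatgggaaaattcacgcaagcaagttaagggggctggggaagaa

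RefSeq promoters, each from 250 bases before to 50 after a start, were at hand for 8 of the 10 genes, in 9 windows. They were searched on both strands for the core of the interferon-stimulated response element and for the CCAAT box (CCAAT). Matches of the first motif were in the windows of Erap1 and Psme1, against 3.44% of 32851 promoters searched. The CCAAT box was in those of Tapbp, Psmb9 and Tap1, against 37.4%. The matches of Psmb9 and Tap1 are the same site, the one marked between their starts above, since their windows overlap. The 2 matches of the first motif are shown on the plus strand of GRCm38.p6 with the motif in capitals, to show the letters that matched. A match describes letters and is not a binding site. The coordinates are chr13:74639839-74639868 for Erap1 and chr14:55578493-55578522 for Psme1.
Erap1: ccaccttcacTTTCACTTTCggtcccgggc
Psme1: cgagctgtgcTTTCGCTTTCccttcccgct

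The deposited matrices held 127186298 unique molecular identifiers (UMIs, each a counted transcript) in 9130 knockout barcodes and 208936136 UMIs in 10882 control barcodes. Filters on genes, mitochondrial UMIs and doublets left 8062 knockout and 8595 control cells, which were placed in 13 classes of immune cell and 1 class of melanoma cell by marker genes. Each class's own marker set was higher in its class than in any other class, in 28 of 28 cases over both libraries. Nearly all of these markers had placed the cells, so this describes the classes and is no independent check of them. The knockout melanoma class held 14 cells and the control class 181. The libraries differed in ways that touch the comparisons: the median UMIs per cell were 12884.5 in knockout and 21113.5 in control CD8 T cells, and 10436 in knockout and 19124 in control macrophages. Cells with a UMI of the division genes Mki67 or Top2a made up 57.5% of knockout and 78.1% of control CD8 T cells, and 25.6% and 49.4% of macrophages. Of the barcodes, 30 occurred in both libraries (0.329% of knockout and 0.276% of control barcodes). Free RNA was estimated at 1.03% to 4.98% of a class's UMIs in the knockout and 1.45% to 6.81% in the control library. Dct, a pigment gene of the melanoma cells, was at 12.2 CPM (counts per 1000000 UMIs of the class) in knockout and 83.2 CPM in control macrophages. With the estimated free RNA subtracted, the counts of called genes in the 6 main comparisons below were the same but for macrophages, with 3 in place of 4. Fdps stood at 89.0 CPM in knockout melanoma cells (interval 76.0 to 104) and 402 CPM in control melanoma cells (394 to 411). It was also lower in the knockout library in each of the 13 immune classes, which are host cells, for example at 27.7 against 78.3 CPM in CD8 T cells. Whether the counted reads lie in the edited stretch is not stated, so Fdps alone does not check the labels.

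Levels are UMIs summed over the cells of a class and scaled to CPM of that class. Each difference is the log2 of the knockout over the control value of CPM plus 5, and a gene is called higher or lower where CPM plus 5 differed at least 1.5-fold. All 10 genes passed the minimum of 10 CPM (mean of the libraries) in each of the 14 classes, so no gene is missing from any count below.

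Summed over the 10 genes, mature dendritic cells (DCs, cells that carry antigen to T cells) held the most of this machinery in both libraries, with 4707 CPM in the knockout and 5182 CPM in the control library. Type 1 conventional DCs (cDC1), which are specialised in presenting taken-up antigen on class I, followed with 3627 CPM in the knockout and 4556 CPM in the control library. B cells had the lowest sum, 1434 CPM in the knockout and 1524 CPM in the control library. In each library their interval overlapped that of neutrophils, so the lowest place is not settled. The melanoma cells, at 1939 and 1693 CPM, lay within the range of the immune classes. In 13 of 13 immune classes the sum was lower in the knockout library, and in melanoma cells it was higher. The intervals of the libraries overlapped in B cells (1366 to 1505 CPM in the knockout and 1446 to 1604 CPM in the control library). They also overlapped in neutrophils (1410 to 1640 and 1602 to 1820 CPM).

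Single genes had their highest immune level mostly in DCs. In the knockout library Tap1, Tap2, Tapbp, Psme1, Psme2 and Nlrc5 were highest in mature DCs, Psmb8 and Psmb9 in cDC1, Psmb10 in type 2 conventional DCs (cDC2) and Erap1 in type 2 innate lymphoid cells (ILC2). In the control library Tapbp, Psme1 and Psme2 were highest in mature DCs, Tap1, Tap2, Psmb8 and Psmb9 in cDC1, Psmb10 in monocytes, Erap1 in regulatory T cells and Nlrc5 in CD4 conventional T cells. The highest immune class exceeded the lowest by 2.31-fold (Tapbp, control) to 6.66-fold (Psme2, knockout). Neighbours in the order of 13 immune classes often could not be told apart: their intervals overlapped in 6 (Psme1, knockout) to 12 (Erap1, knockout, and Tap2, control) of the 12 neighbouring pairs.

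**Figure D1:**
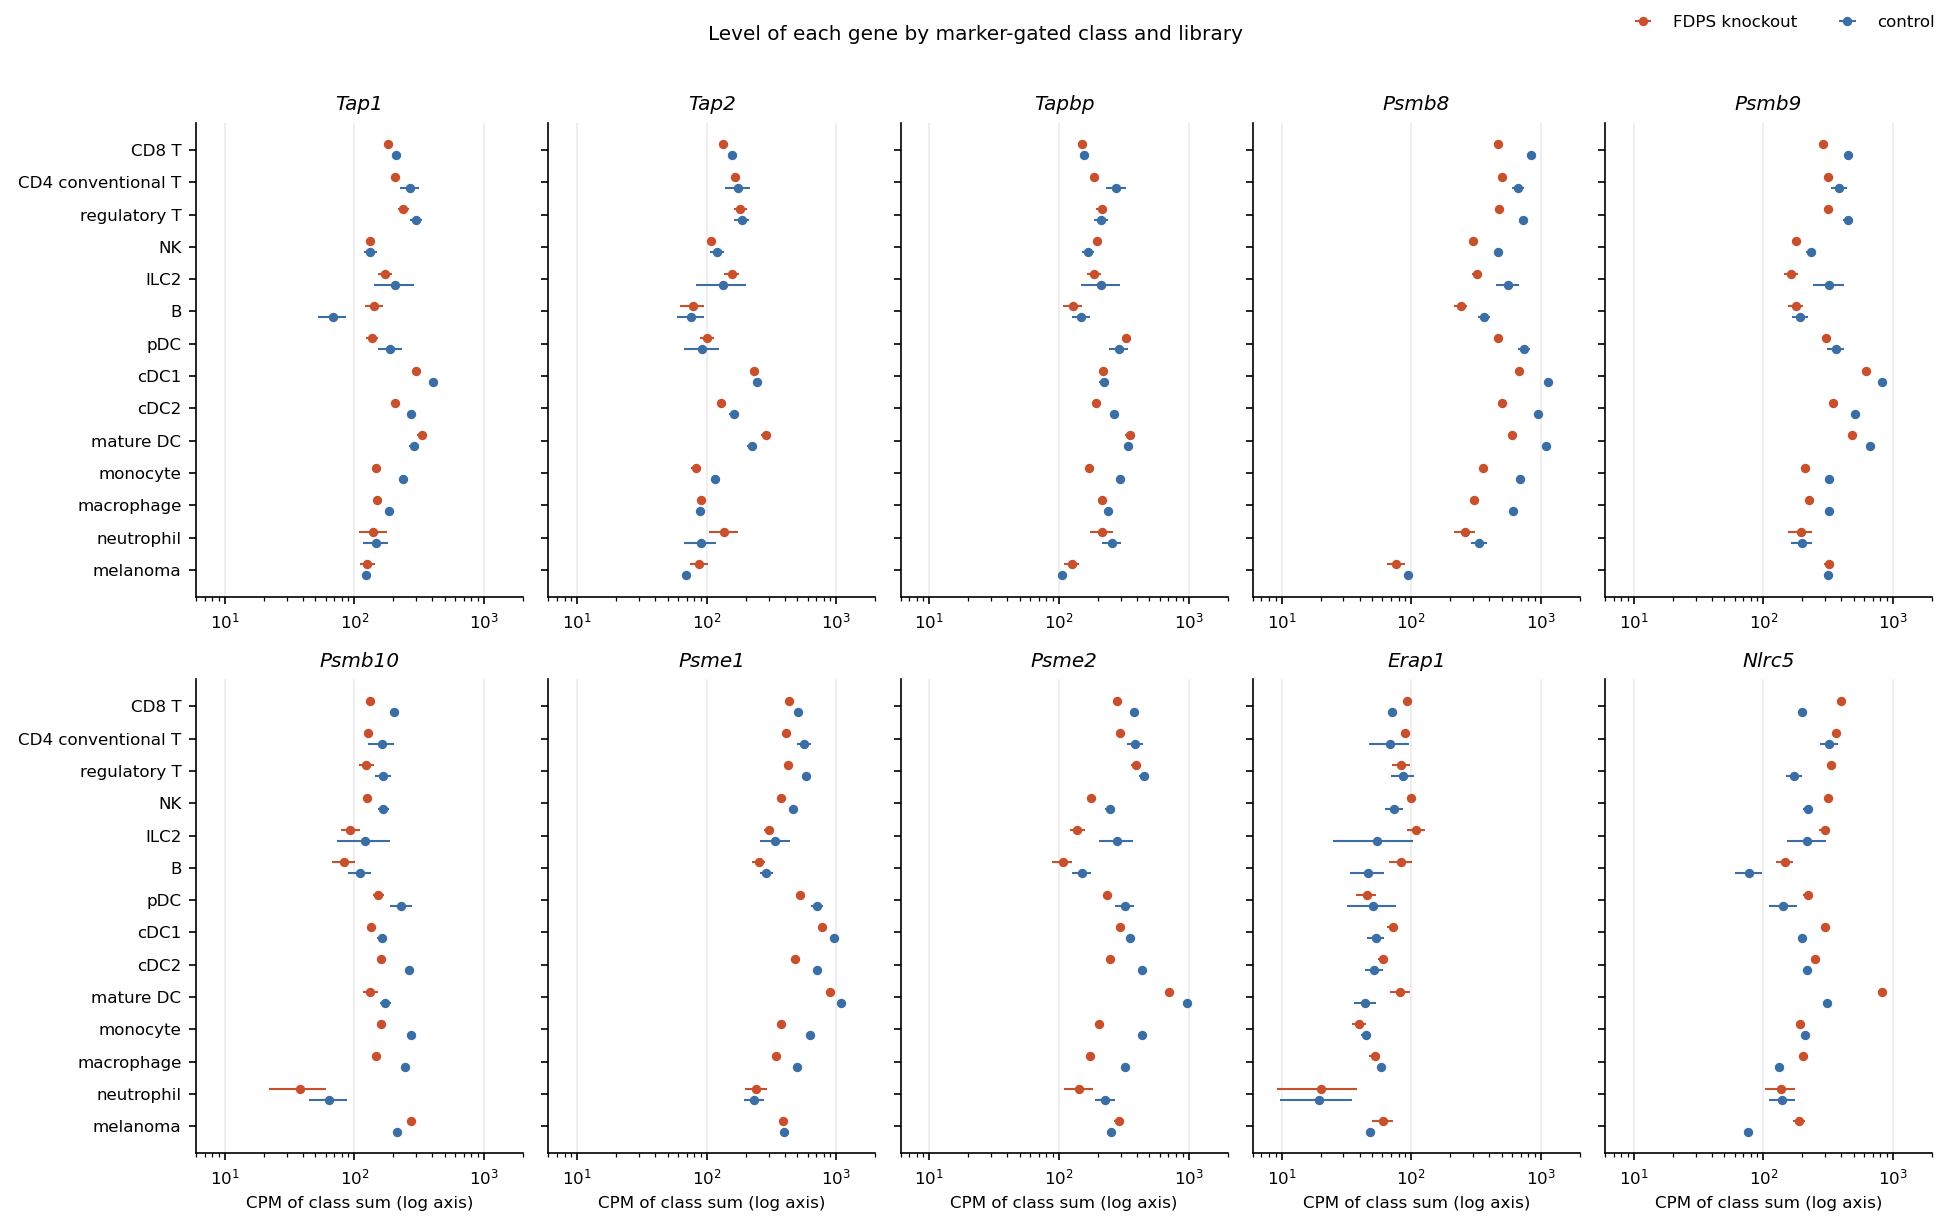
Level of each of the 10 genes (panels) in 13 immune classes and melanoma cells (rows), in CPM of the class sum on a log axis, for the FDPS-knockout library (upper point of each pair) and the control library (lower point), with 95% Poisson intervals. Psmb8 lies to the left in the knockout library in each of the 14 rows, and Nlrc5 lies to the right in 12 of them.

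The transporter genes and tapasin were called in monocytes and B cells alone, and the monocyte calls of Tap1 and Tapbp were lost under a stricter marker gate, described with that class. Tap1 was at 183 CPM in knockout and 209 CPM in control CD8 T cells, at 132 and 133 CPM in NK cells, and at 150.3 and 186 CPM in macrophages. Its log2 ratio was below 0 in 11 of 13 immune classes and reached 1.5-fold in 2 of them, monocytes (146 CPM in the knockout and 237 CPM in the control library, log2 ratio −0.68) and B cells (141 and 68.1 CPM, 2.08-fold). The B cell value rests on 163 knockout and 65 control UMIs, and its fold interval ran from 1.55 to 2.81. Tap2 was below 0 in 7 classes and above 0 in 6 and was called in none, with ratios between −0.48 in monocytes and 0.56 in neutrophils. Tapbp was below 0 in 9 classes and was called in monocytes alone, where it stood at 171 CPM in the knockout and 297 CPM in the control library (log2 ratio −0.78).

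The inducible proteasome subunits had ratios below 0 in each immune class. Psmb8 was below 0 in 13 of 13 immune classes and at least 1.5-fold lower in 11 of them, where 4.74% (NK cells) to 24.2% (ILC2) of all genes tested were lower by that much. Among T cells it stood at 466 CPM in knockout and 834 CPM in control CD8 T cells, at 502 and 666 CPM in CD4 conventional T cells, and at 477 and 732 CPM in regulatory T cells. It was at 298 and 470.0 CPM in NK cells, 323 and 557 CPM in ILC2 and 241 and 367 CPM in B cells. The classes that were not called were CD4 conventional T cells and neutrophils, with log2 ratios of −0.40 and −0.36.

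Among myeloid classes Psmb8 was at 679 CPM in knockout and 1132 CPM in control cDC1, at 500.3 and 957 CPM in cDC2, at 602 and 1094 CPM in mature DCs and at 472 and 742 CPM in plasmacytoid DCs (pDCs). Monocytes held 357 CPM in the knockout and 686 CPM in the control library, macrophages 306 and 609.9 CPM, and neutrophils 260.2 and 336 CPM. The ratio was lowest in macrophages, at −0.99, which is 0.501 of the control level (interval 0.481 to 0.521). Each of the 8 immune classes that held 100 or more cells per library was called. Scaled by the median gene in place of the total, Psmb8 stayed below 0 in 13 of 13 classes.

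Psmb9 was below 0 in 13 of 13 immune classes, or 12 when scaled by the median gene, and was called lower in CD8 T cells, ILC2 and monocytes. It was at 289.5 CPM in knockout and 446 CPM in control CD8 T cells and at 209 and 323 CPM in monocytes. Psmb10 was below 0 in 13 of 13 classes under both scalings and was called in cDC2, monocytes, macrophages and neutrophils, with 146 CPM in knockout and 244 CPM in control macrophages. The neutrophil call rests on 17 knockout and 36 control UMIs, and its fold interval, 0.313 to 1.09, includes 1. The monocyte calls of Psmb9 and Psmb10 were lost under the stricter marker gate. In CD8 T cells Psmb10 was just inside the limit, with 133 and 201 CPM and a log2 ratio of −0.58. The antisense gene Gm16156 covers all 2710 bases of Psmb10, Psmb8 shares 2139 bases with the antisense gene Gm20496, and Tap1 and Psmb9 share 212 bases on opposite strands. Whether the authors' counting used strand is not stated, so reads of such partners may be mixed.

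Of the activator genes, Psme1 was called in 1 immune class and Psme2 in 5. Psme1 was below 0 in 12 of 13 classes and was called in monocytes alone, a call lost under the stricter gate, at 374 CPM in the knockout and 625 CPM in the control library. Psme2 was below 0 in 13 of 13 and was called in ILC2, cDC2, monocytes, macrophages and neutrophils. Its ratio of −1.09 in monocytes (205 CPM in the knockout and 440.1 CPM in the control library) was the lowest of any of the 10 genes in any class. Psme2b, a near copy of Psme2 with far fewer UMIs, went the other way, with a ratio above 0 in 12 of 13 classes and 213 knockout and 308 control UMIs in monocytes. How reads were split between the copies is not stated, so the size of the Psme2 difference is uncertain.

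Erap1 and Nlrc5 had ratios above 0 in most immune classes. Erap1 was above 0 in 9 of 13 immune classes and was called higher in ILC2, B cells and mature DCs, where it was at 82.5 CPM in the knockout and 44.2 CPM in the control library. In these classes 35.6%, 16.2% and 20.2% of all genes were higher by as much, and against genes of like span, described below, Erap1 was lower in 6 classes and higher in 6. Nlrc5 was above 0 in 11 of 13 classes (12 when scaled by the median gene) and was called higher in 6, where 14.9% (pDCs) to 20.5% (regulatory T cells) of all genes were higher by that much. Monocytes and neutrophils were the exceptions, with ratios of −0.12 and −0.04.

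For Nlrc5 the levels were 400.3 CPM in knockout and 198 CPM in control CD8 T cells, 365 and 322 CPM in CD4 conventional T cells, and 335 and 172 CPM in regulatory T cells. Mature DCs held 826 CPM in the knockout and 312 CPM in the control library, the widest gap of the 10 genes in any immune class (log2 ratio 1.39, fold interval 2.42 to 2.90). Levels were 299.6 and 199.6 CPM in cDC1, 251 and 217 CPM in cDC2 and 220.2 and 143 CPM in pDCs. Nlrc5 was above 0 in 10 of the 11 classes in which Psmb8 was called lower, the exception being monocytes.

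**Figure D2:**
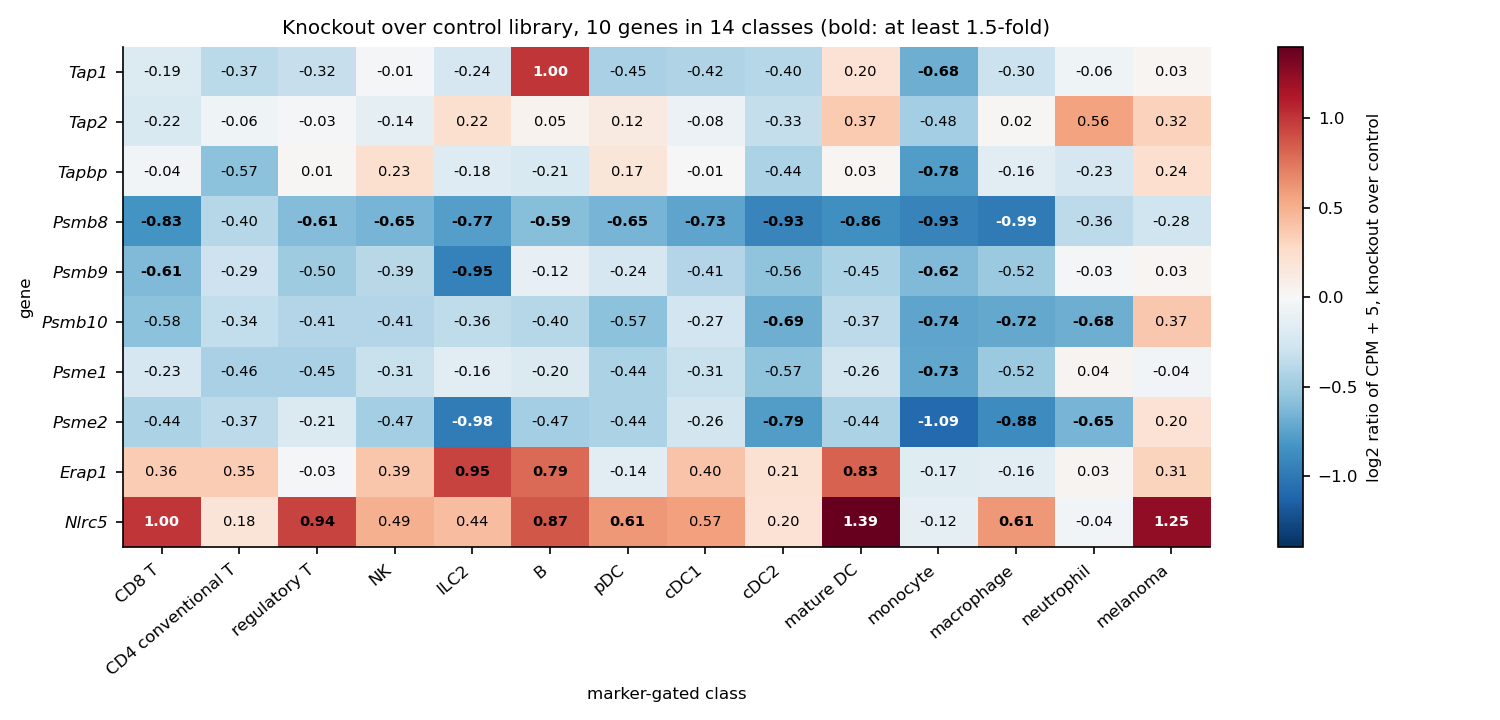
Log2 ratio of knockout to control (CPM plus 5) for the 10 genes (rows) in the 14 classes (columns). Blue is lower and red is higher in the knockout library, and bold values are at least 1.5-fold apart. The row of Psmb8 is blue throughout, the column of monocytes is blue throughout, and the row of Nlrc5 is red in 12 of 14 columns.

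The 6 comparisons chosen as main ones were CD8 T cells, NK cells, monocytes, macrophages, the conventional DCs together (cDC1, cDC2 and mature DCs) and melanoma cells. In CD8 T cells, the cells that recognise class I peptides, 1 of the 10 genes was called higher (Nlrc5) and 2 lower (Psmb8 and Psmb9), where 18% of all genes tested were higher and 7.49% lower by as much. The median ratio of the 10 was −0.22, against 0.14 over all genes. The difference was seen in dividing and other cells: Psmb8 had a ratio of −0.75 in dividing cells (1193 knockout and 1429 control cells), −0.59 in non-dividing cells with a UMI of Tcf7, a gene of less differentiated T cells (480 and 68 cells), and −0.97 in non-dividing cells without one (401 and 333 cells). Nlrc5 had ratios of 0.91, 0.45 and 1.01 in the same groups of cells. Without dividing cells 2 genes were called higher and 3 lower in CD8 T cells, where 19.1% of all genes were higher and 10.6% lower. Scaled by the median gene 1 was called higher and 4 lower, where 10.8% of all genes were higher and 13.2% lower.

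In NK cells, which attack cells that lack class I, 0 of the 10 were called higher and 1 lower (Psmb8), where 7.11% of all genes were higher and 4.74% lower, and the median was −0.22, against 0.09 over all genes. Without dividing cells 1 was called higher and 3 lower, where 10.2% of all genes were higher and 7.05% lower. Scaled by the median gene the calls were 0 and 1, where 4.22% of all genes were higher and 7.29% lower. In non-dividing NK cells with a UMI of Itga1, a marker of tissue-resident cells (231 knockout and 33 control cells), the ratio was −0.83 for Psmb8 and 0.70 for Nlrc5.

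Monocytes differed most widely across the genes. Of the 10, 0 were called higher and 7 lower, where 18% of all genes were higher and 11.2% lower, and the median was −0.71, against 0.12 over all genes. The genes within the limit were Tap2 (82.3 CPM in the knockout and 116 CPM in the control library), Erap1 (39.6 and 45.1 CPM) and Nlrc5 (192 and 209 CPM). The count was 7 in dividing cells, where 31.9% of all genes were called in either direction, and 7 in the others, where 31.7% were. Scaled by the median gene 8 were called lower, where 13.5% of all genes were higher and 15.2% lower. Under a stricter marker gate, which left 216 knockout and 702 control monocytes, it was 2 (Psmb8 at −0.75 and Psme2 at −0.72), where 20.5% of all genes were higher and 10.3% lower, with a median of −0.45 and with Nlrc5 at 0.22. The size in monocytes therefore depends on which cells at the border of the gate are counted as monocytes.

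In macrophages 3 of the 10 were called lower (Psmb8, Psmb10 and Psme2) and 1 higher (Nlrc5, 203 CPM in the knockout and 132 CPM in the control library), where 16.4% of all genes were lower and 16.7% higher, and the median was −0.41, against 0.01. Nlrc5 had a ratio of 0.61 and was no longer called without the mitochondrial filter, with free RNA subtracted, and as a mean over cells. Macrophages differed in makeup: non-dividing cells with a UMI of the scavenger receptor gene Cd163 were 15.4% of knockout and 0.917% of control macrophages, and those with a UMI of Spp1 3.51% and 22.2%. Psmb8 was lower in each of these states, at −1.47 in Cd163 cells (101 knockout and 27 control cells), −1.07 in Spp1 cells (23 and 655), −0.96 in those with neither (363 and 789) and −0.84 in dividing cells (168 and 1454).

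In the conventional DCs together 2 of the 10 were called lower (Psmb8 and Psme2) and 0 higher, where 5.92% of all genes were lower and 11% higher, with a median of −0.38, against 0.11. Scaled by the median gene 4 were called lower, where 7.06% of all genes were higher and 9.11% lower. By type, cDC1 had 0 genes higher and 1 lower, against 13.3% and 6.53% of all genes, and cDC2 had 0 higher and 3 lower, against 13.7% and 7.7%. Mature DCs had 2 higher and 1 lower, against 20.2% and 13.5%. A single gene of 10 is a share of these 10 near such backgrounds, while 3 of 10 is above that for cDC2. The pool differed in makeup: mature DCs were 111 of its 854 knockout cells and 156 of its 475 control cells. By type, Psme2, which was highest in mature DCs, was called in cDC2 alone. Its ratios were −0.26 in cDC1, −0.79 in cDC2 and −0.44 in mature DCs. The part of makeup in the pooled values was not tested.

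Of the smaller classes, B cells had 3 genes higher (Tap1, Erap1 and Nlrc5) and 1 lower, against 16.2% and 9.05% of all genes. Regulatory T cells had 1 higher and 1 lower, against 20.5% and 14.1%, and pDCs 1 and 1, against 14.9% and 9.85%. ILC2 had 1 higher and 3 lower, against 35.6% and 24.2%, so wide a background that these calls say little of the 10 genes. Neutrophils had 0 higher and 2 lower, against 17.6% and 28.9%, and CD4 conventional T cells had 0 of either, against 13% and 8.64%. The smallest of these, control ILC2, held 20 cells.

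Melanoma cells showed another pattern. Nlrc5 stood at 189 CPM in knockout and 76.6 CPM in control melanoma cells (log2 ratio 1.25, fold interval 2.19 to 2.76) and was the only gene of the 10 called, where 14% of all genes were higher and 7.61% lower by that much, or 10.1% and 11.4% when scaled by the median gene. The other 9 lay between −0.28 (Psmb8) and 0.37 (Psmb10), with a median of all 10 of 0.22, against 0.10 over all genes. Per cell, Nlrc5 ran from 38.2 to 816 CPM with a median of 187 CPM over the 14 knockout cells, and from 0 to 751 CPM with a median of 61.2 CPM over the 181 control cells, so the cells overlapped. These cells come from unknown tumours among 3, and they are no replicates.

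Psmb8 was low in melanoma cells of both libraries, at 76.7 CPM in the knockout and 94.2 CPM in the control library, below each immune class. The knockout sum was uneven, since 1 cell held 31.2% of its 144 UMIs, and the median cell had 30.0 CPM in the knockout and 60.2 CPM in the control library. Ptprc, the CD45 gene on which the cells were sorted, was at 32.5 CPM in knockout and 10.9 CPM in control melanoma cells, against 714 to 3284 CPM in the knockout and 433 to 2713 CPM in the control immune classes. Among melanoma cells with 0 UMIs of Ptprc (5 knockout and 103 control cells) Nlrc5 had a ratio of 1.39 and Psmb8 one of −1.84. With 5 knockout cells the size of both ratios is uncertain. Without dividing cells only 2 knockout cells were left, against 26 control cells, too few to describe.

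**Figure D3:**
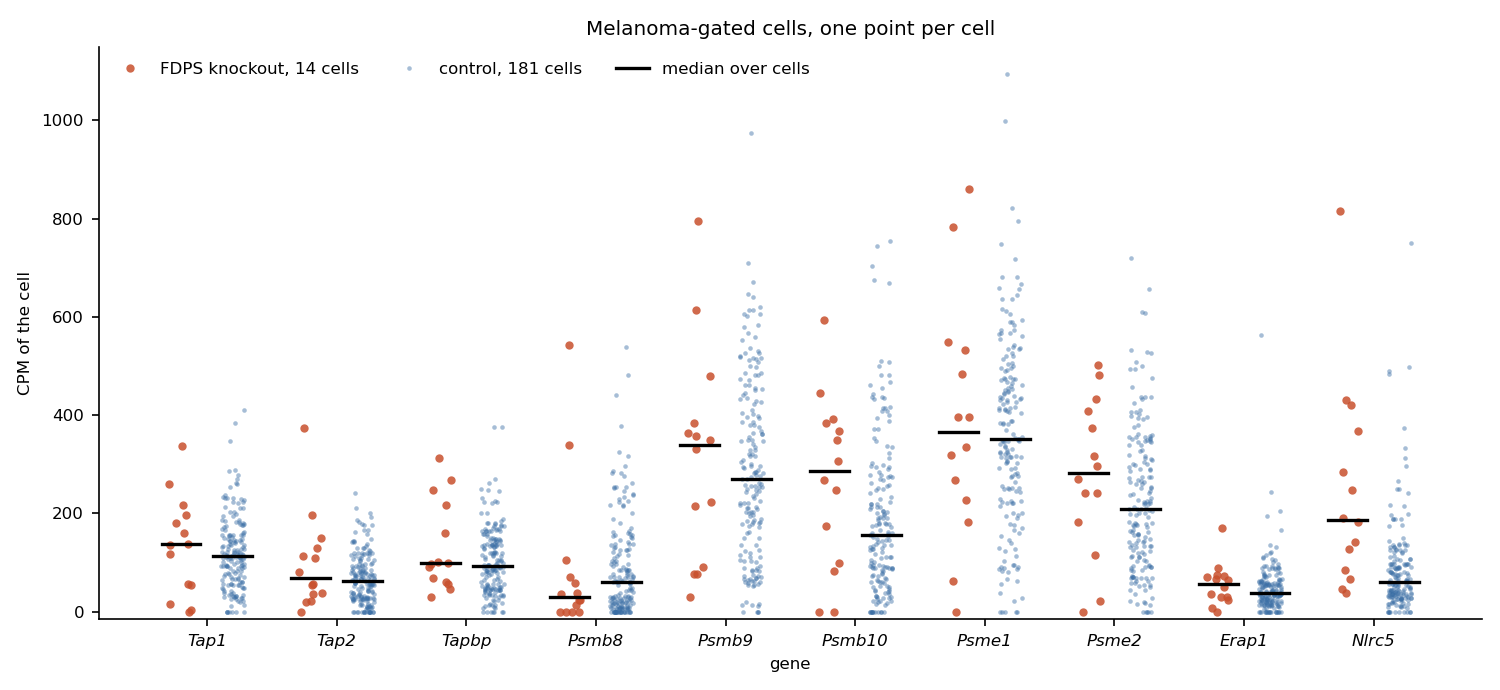
Level of the 10 genes in each melanoma cell, in CPM of the cell, for 14 knockout cells (left of each pair) and 181 control cells (right), with black bars at the medians. The cells overlap for every gene, and the medians lie farthest apart in proportion for Nlrc5, at 187 CPM in knockout and 61.2 CPM in control cells.

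The balance of inducible and constitutive catalytic subunits was read as the share of UMIs of Psmb8, Psmb9 and Psmb10 among these plus Psmb5, Psmb6 and Psmb7. It is a share of molecules counted and not of proteasomes. In CD8 T cells it was 69.0% in the knockout against 70.5% in the control library, in monocytes 73.2% and 72.9%, and in cDC1 79.3% and 79.4%. Of the constitutive subunits, Psmb6 was called lower in 11 of 13 immune classes, Psmb5 in 9 and Psmb7 in 2, where 4.74% (NK cells) to 28.9% (neutrophils) of all genes were lower by as much. Psmb7 had a median ratio of −0.19 and was above 0 in 3 classes. The share was lower in knockout mature DCs, at 79.8% (interval 78.2 to 81.4) against 83.8% (82.8 to 84.8) in control ones. In CD4 conventional T cells it was 74.5% (73.6 to 75.3) in knockout and 78.5% (75.4 to 81.4) in control cells. The control value there rests on 59 cells and 164 constitutive UMIs. Without dividing cells the order in CD4 conventional T cells was reversed, at 77.5% in knockout and 76.2% in control cells. In mature DCs it held, at 80.3% and 84.7%.

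Macrophages, neutrophils and melanoma cells had a higher inducible share in the knockout library. It was 72.6% (interval 71.6 to 73.6) in knockout and 62.3% (62.1 to 62.6) in control macrophages, 89.5% and 77.3% in neutrophils, which rest on 26 and 99 constitutive UMIs, and 54.7% and 47.4% in melanoma cells. In macrophages the pair of Psmb9 and Psmb6 made the gap, with 68.9% inducible in knockout and 45.0% in control cells, where Psmb6 stood at 101 and 392 CPM. Without dividing cells the macrophage shares were 72.6% and 60.4%. In melanoma cells Psmb8 made up 23.8% of its pair with Psmb5 in knockout and 25.7% in control cells, while in the immune classes it made up 76.5% to 93.6% and 78.0% to 91.9%.

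**Figure D4:**
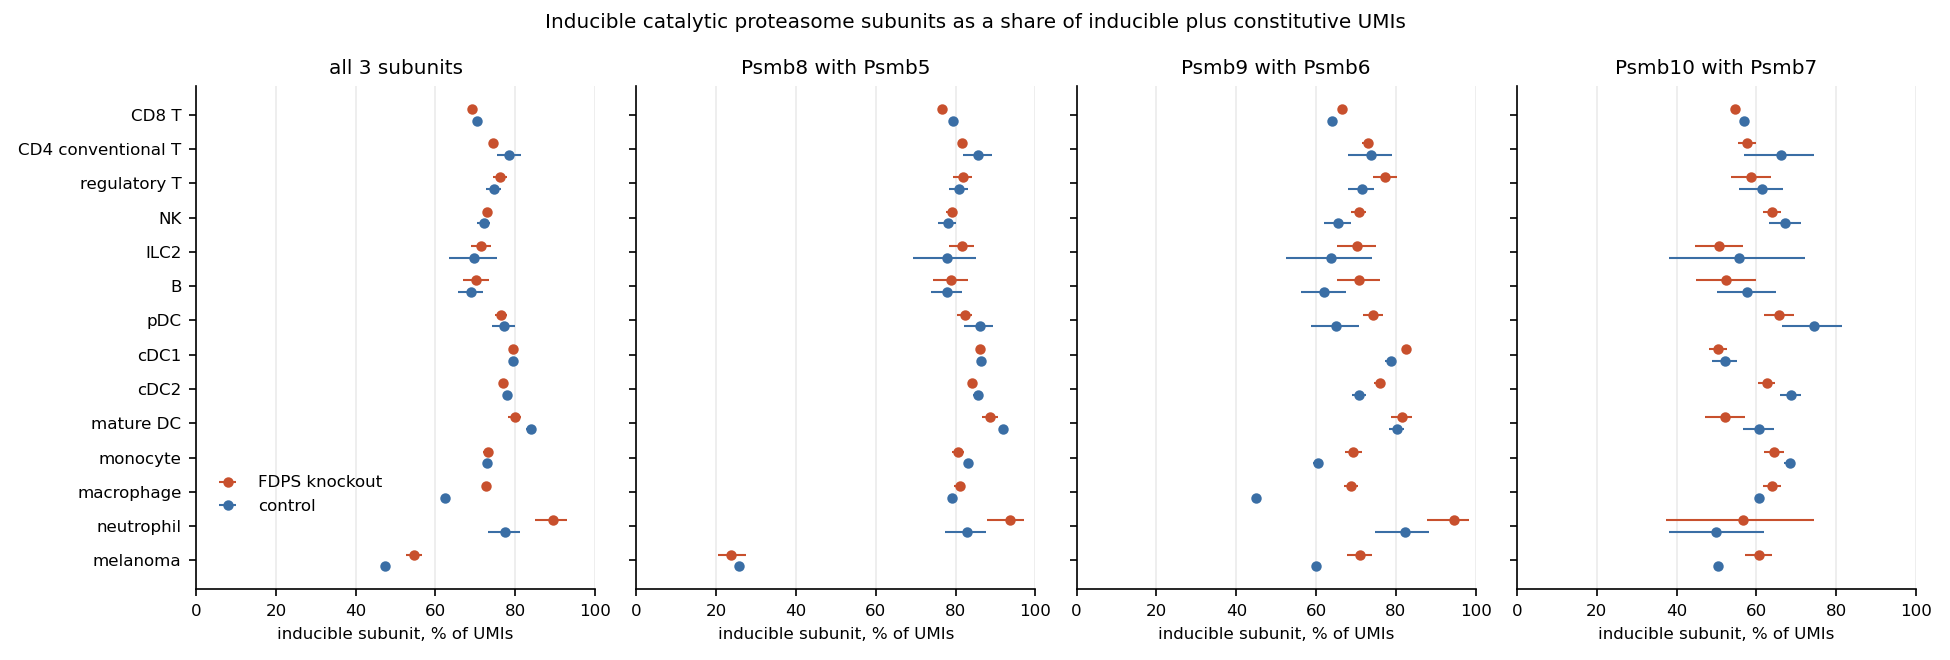
Inducible catalytic subunits as a percentage of inducible plus constitutive UMIs, for all 3 pairs together and for each pair, in 14 classes, for the knockout library (upper point) and the control library (lower point), with 95% exact binomial intervals. Melanoma cells stand apart for Psmb8 with Psmb5, at 23.8% in knockout and 25.7% in control cells, and the libraries differ most for Psmb9 with Psmb6 in macrophages, 68.9% in knockout and 45.0% in control cells.

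The other genes of the 20S proteasome core were called lower in some classes and not in others. Of 11 such genes, 7 were called lower in CD8 T cells, for example Psma5 at 111 CPM in the knockout and 204 CPM in the control library, where 7.49% of all genes were lower by as much. The count was 10 in macrophages (against 16.4%), 5 in monocytes (11.2%), 2 in the conventional DCs together (5.92%), 1 in NK cells (4.74%), 0 in CD4 conventional T cells (8.64%) and 0 in melanoma cells (7.61%), and none was called higher in any of the 14 classes. Of 9 class I genes (heavy chains and B2m, their shared light chain) 3 were called lower in monocytes (against 11.2% of all genes), among them B2m at 2449 CPM in the knockout and 4374 CPM in the control library, and 0 of 9 differed by 1.5-fold in CD8 T cells. H2-K1 was at 1506 CPM in knockout and 1553 CPM in control CD8 T cells. The monocyte counts of these lists are those of the less strict marker gate, on which the monocyte calls above depended. Of 6 loading partners and chaperones, 3 were called higher in mature DCs (against 20.2% of all genes), namely Calr (calreticulin, which binds class I), Pdia3 and Hspa5, the last at 261 CPM in the knockout and 99.3 CPM in the control library.

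Genes induced by interferon-gamma outside the pathway differed by class. Of 11 such genes, 9 were called higher in melanoma cells (against 14% of all genes), with a median of 1.34, for example the chemokine gene Cxcl10 (595 CPM in the knockout and 206 CPM in the control library) and Gbp2 (340.0 and 125 CPM), a guanylate-binding protein gene. In monocytes 5 of 11 were called lower (against 11.2%) and 0 higher, among them Cxcl10 (506 and 1339.5 CPM) and Cd274, which encodes the checkpoint ligand PD-L1 (143 and 576 CPM). In cDC2 6 of 11 were lower (against 7.7%), and in cDC1 and mature DCs 4 of 11 each were higher (against 13.3% and 20.2%), with Cxcl9 at 1233 CPM in knockout and 225 CPM in control mature DCs. Ifng itself was at 136 CPM in knockout and 289 CPM in control CD8 T cells, and at 35.3 and 55.8 CPM in NK cells. In CD4 conventional T cells it was at 115 CPM in the knockout and 348 CPM in the control library. Regulatory T cells went the other way, at 43.6 and 13.6 CPM, on 79 knockout and 16 control UMIs.

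The ratios of all genes moved with the span of the gene, and those of the 10 did so only in part. In CD8 T cells the median ratio was −0.33 over the genes tested in the shortest of 4 span groups and 0.45 over those in the longest. It was −0.44 and 0.29 in macrophages, and −0.21 and 0.27 in melanoma cells. Psmb8, Psmb10, Psme1 and Psme2, each under 4204 bases, fall in the shortest group, and Erap1 and Nlrc5 in the longest. The 4 groups were cut at the quartiles of span over all annotated genes, so they need not hold equal numbers of the genes tested. Set against the median of its group of like span, Psmb8 was lower in 12 of 13 immune classes and Psmb10 and Psme2 in 10. Nlrc5 was higher in 8 and Psme1 was lower in 7. In monocytes 10 of 10 genes, and in cDC2 10 of 10, lay below the median of their group, and in melanoma cells 1 of 10 did. The monocyte count is that of the less strict marker gate. Whether reads in introns were counted is not stated, and the part of gene span in these ratios was not tested.

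**Figure D5:**
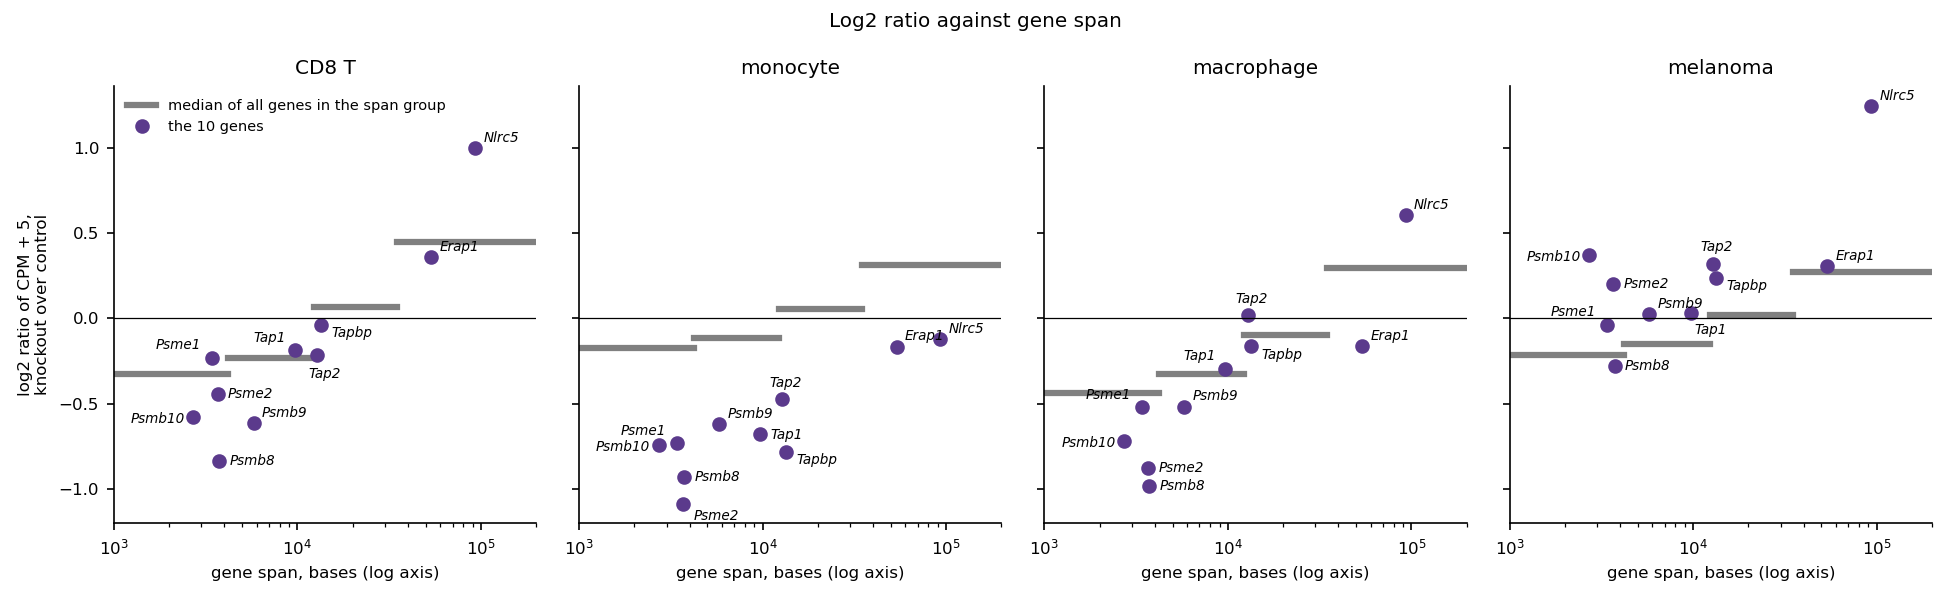
Log2 ratio of knockout to control (CPM plus 5) against the span of each gene in bases (log axis) for the 10 genes (points) in CD8 T cells, monocytes, macrophages and melanoma cells, with grey bars at the median of all genes in each of 4 groups by span. The grey bars climb with span in the 4 panels. Monocyte points lie below the bars, and Nlrc5 lies above its bar in CD8 T cells, macrophages and melanoma cells.

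Across the 25 class sums with at least 50 cells, most of the 10 genes varied together. The 45 pairs had a median Pearson correlation of log2 CPM of 0.53, from −0.22 (Tapbp with Erap1) to 0.92 (Psmb9 with Psme1). Tap1 with Tap2 had 0.86, Psme1 with Psme2 0.85, and Tap1 with Psmb9, the pair read away from each other, 0.83. Erap1 had the lowest median with the other 9 genes, 0.21. Of 9147 genes, Phf11a (0.84), Phf11b (0.82), Gnb4 (0.80), Actb (0.80) and Txndc17 (0.79) were most like the mean of the 10 over the same sums. These sums share 2 libraries and their depth, and the values describe them only.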

How the data were processed

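Transcripts of viable CD45-positive cells from B16-F10 tumours were counted in 1 FDPS-knockout and 1 control library, each from 3 tumours. The authors deposited raw UMI counts per gene and cell barcode, written by Cell Ranger (version 7.2.0, per the file headers) on mm10, per the submitters' processing notes. Gene annotation, strand use and the treatment of intron reads are not given in the sources used here.

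Cells were kept with at least 200 genes and under 10% mitochondrial UMIs. Doublets were scored with Scrublet (scanpy 1.11.5). Its own threshold marked 0 knockout and 144 control cells, so the highest scores were removed at 0.8% per 1000 barcodes (635 knockout and 820 control cells). Cells were placed in classes by the mean of scaled marker genes, with a margin of 0.05 over the next class (0.15 in the stricter gate) and at least 2 markers. The scoring rule, and the minimum of 10000 UMIs for melanoma cells, were chosen after the data were seen. The gate left 1063 knockout and 938 control cells unassigned and 676 and 194 T cells unresolved.

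For each class, a library's UMIs were added up and divided by their total (CPM), with exact Poisson intervals, and exact Clopper-Pearson intervals for shares. A class needed 20 cells, which knockout melanoma (14 cells) did not reach and was reported as planned. Genes with at least 10 CPM were compared. All 10 genes are named, and of the other lists those with extreme ratios and examples beyond 1.5-fold, some chosen after their values were seen. The genes, lists and markers were chosen with earlier results of these data known. Correlations used classes with at least 50 cells. The log2 ratio with its 1.5-fold call and the Poisson interval were tested on simulated Poisson counts. The gate and the other steps were not tested in this way. Gene spans came from GENCODE vM21, in which 32158 of 32285 identifiers (99.6%) matched. A motif and a gene that are withheld are not reported here.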

Additional observations from a re-analysis of the deposited data

How the results depend on the processing

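Of the genes called in the main comparisons, all kept their sign under every alternative tried. Calls were kept throughout for 3 of 3 genes in CD8 T cells, 1 of 1 in NK cells, 2 of 7 in monocytes, 3 of 4 in macrophages, 2 of 2 in conventional DCs and 1 of 1 in melanoma cells. The conventional DC calls are for the pool, whose makeup by type differed between the libraries. Counts of called genes that moved by over 1.5 times were as follows. In CD8 T cells 3 became 5 with scaling by the median ratio of genes and 5 without dividing cells. In NK cells 1 became 4 without dividing cells and 2 as a mean over cells. In monocytes 7 became 2 under the stricter gate. In conventional DCs 2 became 4 with scaling by the median ratio. In melanoma cells 1 became 9 without dividing cells, with 2 knockout and 26 control cells left, and 2 among cells with 0 UMIs of Ptprc. The cause was not tested. A pseudocount of 1, no mitochondrial limit, no doublet removal, free RNA subtracted and, added after seeing the data, all melanoma-marked barcodes (18 knockout and 481 control) left the counts within that bound. With no filter on low genes the share of all genes called was 7.78% to 16.1%, against 11.8% to 33.1%. No replicate could be left out and no paired analysis was possible because each group is 1 library. Depth limits the smaller classes most: neutrophil Erap1 rested on 9 knockout and 11 control UMIs.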

Other observations

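Regulators of the class I and class II genes were among the listed genes that differed in melanoma cells. Of 18 measured, 7 were called higher in the knockout library and 1 lower, where 21.6% of all genes differed either way. Ciita, the transactivator of class II genes, was at 51.2 CPM in knockout and 9.09 CPM in control melanoma cells, and Irf2, an interferon regulatory factor, at 127 and 60.3 CPM. The knockout values rest on 14 cells. Of these, 64.3% held a UMI of Ptprc, the CD45 gene, against 43.1% of the control melanoma cells. Whether RNA of white blood cells adds to these values was not tested. Ciita was also higher in monocytes, at 319 CPM in the knockout and 151 CPM in the control library, and in mature DCs, at 249 and 68.9 CPM. Socs1, which damps cytokine signals, went the other way in these DCs, at 16.4 and 55.1 CPM, and in monocytes, at 35.5 and 82.3 CPM. The monocyte values are those of the less strict marker gate.

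Among other peptidases of the cytosol and the endoplasmic reticulum, Lap3, a leucine aminopeptidase, was at 48.2 CPM in knockout and 129 CPM in control macrophages and at 49.3 and 105 CPM in cDC1. Psme4, another proteasome activator, was at 164 CPM in knockout and 93.2 CPM in control mature DCs. H2-T22, a class I gene outside the classical pair, was at 87.9 CPM in knockout and 179 CPM in control monocytes (less strict marker gate) and at 103 and 202 CPM in mature DCs.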
